A study of Mus musculus with 20 samples.

Results

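Stem and progenitor (LSK) and megakaryocyte-erythroid progenitor (MEP) cells of the same 2 Bcor-/-Dnmt3a-/- double knockout mice were compared, which gave 4 of the 20 libraries and 2 of the 10 LSK and MEP pairs of the series. An LSK and an MEP library formed a pair where their labels name the same mouse. Of the 24315 genes in the tables, 11876 reached a mean of 1 FPKM (fragments scaled to transcript length and to sequencing depth) in these 4 libraries and entered the comparison. Just under this minimum were Nanos3 at 0.999 and Acad12 at 0.998 FPKM, and just above it Olr1 at 1 and Scnn1a at 1.0015 FPKM.

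All mice were labelled C57BL/6 and their LSK and MEP cells were sorted from bone marrow (BM). The Bcor-/-Dnmt3a-/- mice carry Mx1-Cre, an interferon-inducible recombinase switched on by pIpC, with a Bcor allele losing exons 8 to 10 and a floxed Dnmt3a allele, and the study describes the profiled animals as leukemic. Mx1-Cre also acts outside the blood in interferon-responsive cells, and the labels give neither age nor time after pIpC nor disease stage for any library. WT controls were mice with untargeted genes (3 mice), and the single knockouts were Dnmt3a-/- (3 mice) and Bcor-/- (2 library pairs, of which the label of pair 1 names 2 animals). The study describes the single knockouts as expressing Mx1-Cre too. The column names of all mutant libraries hold Cre, and those of the WT libraries do not. Cre and the deletions therefore cannot be told apart in a contrast with WT. BCOR is a subunit of a noncanonical Polycomb repressive complex and DNMT3A is a de novo DNA methyltransferase.

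LSK cells (Lin-Sca1+Kit+) hold the blood stem cells and the earliest multipotent progenitors, while MEP (Lin-Sca1-Kit+CD34-, Fc gamma receptor low) are committed to red cells and platelets. In normal marrow the step from LSK to MEP shuts down stem cell regulators such as HLF, MEIS1 and the HOXA proteins together with the first granulocyte genes. It switches on GATA1, KLF1 and their targets, which include the erythropoietin receptor, heme synthesis and the red cell membrane. The stage difference used below is the log2(FPKM + 1) value of LSK minus that of MEP within a mouse, centred on that mouse's median over the genes at the minimum, so that positive values mean higher in LSK. LSK and MEP values stand in separate tables that may have been scaled separately, so a stage difference within a genotype is given without a test, whereas the change of a stage difference between genotypes was tested.

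The RNA of the deleted genes and of the sort markers was checked against the labels. Dnmt3a had 10.4 and 10.9 FPKM in double knockout LSK of mouse 1 and mouse 2, against 19.9, 16.1 and 17.2 in WT LSK, and fell by 0.68 on the log2 scale (adjusted p = 0.0141, limma). In MEP it had 6.85 and 3.44 FPKM against 6.11, 5.49 and 6.64. Bcor RNA had 24.0 and 37.4 FPKM in LSK and 19.6 and 26.7 in MEP, against 29.5 to 32.4 and 21.3 to 26.9 in WT (adjusted p of 0.871 and 0.888), and a gene-level FPKM also counts fragments outside the deleted exons. Ly6a, which encodes the Sca1 antigen, was at 63.5 and 220.2 FPKM in double knockout LSK and at 17.8 and 1.87 in MEP, whereas no WT MEP library exceeded 0.79. Kit, the receptor used in both gates, was lower in both cell types, with 47.7 and 19.4 FPKM in LSK against 148 to 174 in WT, and 38.1 and 20.2 in MEP against 77.0 to 83.5. Cd34 was at 5.87 and 37.3 FPKM in double knockout LSK against 548 to 649.7 in WT. The Fc gamma receptor gene Fcgr3, low by definition in MEP, was at 63.9 and 27.9 FPKM in double knockout MEP against at most 4.54 in WT. The Ly6a level separated the gates less in mouse 1 than in WT, with a stage difference of 1.66 against 4.95 to 6.02, but not in mouse 2, where it was 6.06.

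The 2 double knockout mice stood apart from each other and from the other genotypes. In mouse 1 only 201 of 11876 genes (1.69%) differed at least 2-fold between LSK and MEP, 99 of them higher in LSK (0.834%) and 102 higher in MEP (0.859%). In mouse 2 this number was 3821 (32.2%), with 1953 higher in LSK (16.4%) and 1868 higher in MEP (15.7%). WT mice had between 26.0% and 34.9% of their genes at this size, Dnmt3a-/- mice between 30.0% and 37.0%, and Bcor-/- pairs 20.3% and 23.5%. The share higher in MEP alone was 9.08% to 13.0% in WT and 5.41% and 6.98% in Bcor-/-. Mouse 1 was far below the WT range. Mouse 2 was inside it for both directions summed, but below the WT shares of 16.9% to 21.9% for genes higher in LSK and above those for genes higher in MEP. The SD of the stage difference over genes was 0.44 in mouse 1 and 1.11 in mouse 2, against 1.02 to 1.30 in WT. For comparison, 14 pairs of libraries of the same cell type and genotype, double knockout excepted, differed with an SD of 0.27 to 0.45 and in 0.547% to 3.13% of genes. The LSK and MEP libraries of mouse 1 thus differed by about as much as replicate libraries of a single cell type do, although their correlation over genes (r = 0.970) was below that of those pairs (0.978 to 0.992). The 2 mice also differed within a gate, in 20.5% of genes in LSK and 25.8% in MEP. Stage differences of mouse 1 and mouse 2 correlated over 11709 genes with r = 0.395, whereas mice of any other single genotype gave 0.886 to 0.934. These correlations are across genes, which share libraries and are not replicates, and are given as descriptions. Because the 2 mice differ so much, every result below is given for each of them.

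**Figure D1:**
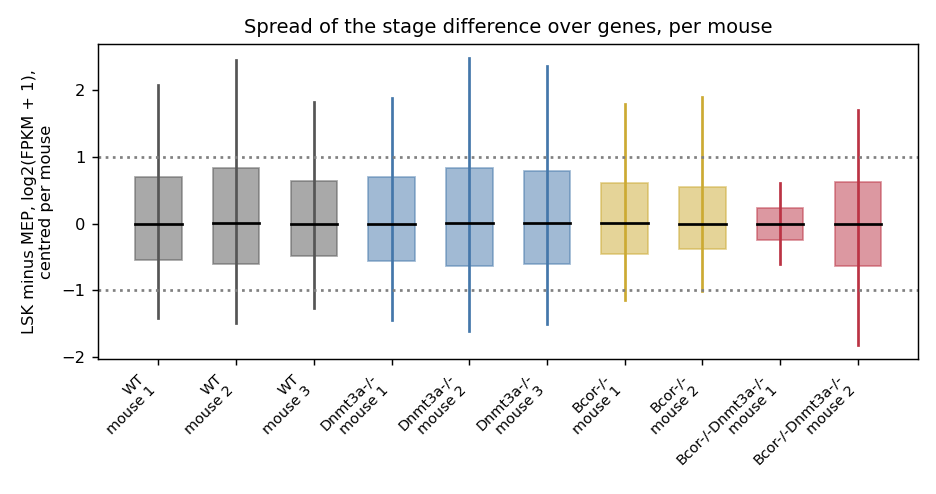
Stage difference (LSK minus MEP of log2(FPKM + 1), centred per mouse) by mouse, for the 11709 genes whose mean in all 20 libraries reached 1 FPKM. Boxes span the 25th to the 75th percentile with the median as a line, whiskers the 5th to the 95th percentile, and dotted lines mark 2-fold. The whiskers of double knockout mouse 1 end at -0.61 and 0.61, inside the dotted lines, and those of mouse 2 at -1.81 and 1.71.

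A gene was called a stage gene where every mouse of the genotype differed at least 2-fold in the same direction. In the double knockout 51 of 11876 genes were higher in LSK in both mice (0.429%) and 55 were higher in MEP (0.463%), 106 in all (0.893%). WT had 1629 stage genes higher in LSK (14.3% of 11377) and 801 higher in MEP (7.04%). Dnmt3a-/- mice had 1782 (15.7% of 11339) and 1088 (9.60%), and Bcor-/- pairs 1382 (12.3% of 11201) and 480 (4.29%). Without mouse 1 the double knockout counts were 1945 and 1881, and without mouse 2 they were 99 and 103, so that the small number follows mouse 1. Centring was redone here over the genes at the minimum in the remaining mouse. These counts therefore differ slightly from those of the single mice above.

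The largest double knockout differences towards LSK were those of Jchain, Ly6a, Prg2, Ly6d, Epx, Slpi, Siglech and Pltp. Jchain, which links immunoglobulin polymers, had 133 and 2733 FPKM in LSK against 57.6 and 17.7 in MEP. Prg2, an eosinophil granule protein, had 140.4 and 824 FPKM in LSK against 61.2 and 17.4 in MEP. In each of these genes mouse 2 carried most of the difference, with stage differences of 6.98 for Jchain, 6.06 for Ly6a and 5.28 for Prg2 against 1.08, 1.66 and 1.07 in mouse 1. Siglech, a plasmacytoid dendritic cell receptor, rested on mouse 2 LSK, with 347 FPKM there and 3.27, 0.803 and 19.7 FPKM in LSK of mouse 1, MEP of mouse 1 and MEP of mouse 2.

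Towards MEP the largest were Mir682, Bex4, Gm15915, Slc25a21, Car1, Nipa1, Klra8 and Ces2g. Car1, the carbonic anhydrase of early erythroid cells, had 1475 and 2362 FPKM in MEP against 2686 to 3713 in WT, and 568 and 377 in LSK against 49.9 to 77.6. Its MEP level remained the higher in both mice, and its LSK level lay above every WT LSK library. Slc25a21, a mitochondrial carrier, had 18.6 and 42.3 FPKM in MEP against 43.1 to 52.7 in WT, and 7.21 and 5.05 in LSK against 0.657 to 1.39. Mir682 is listed at 0 in every LSK library and in 2 WT MEP libraries and at 503 and 591 FPKM in double knockout MEP and 667 in WT MEP 1, so its order does not follow the genotype.

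To ask which stage differences of normal marrow persisted, the WT stage genes among the 11709 genes at the minimum over all 20 libraries were followed into the double knockout, 1623 of them higher in LSK and 801 higher in MEP. A gene was kept where both mice differed at least 2-fold in the WT direction, reversed where both did so in the other direction, lost where both were under 2-fold, and otherwise split. Of the 1623 genes higher in LSK, 25 (1.54%) were kept, 759 (46.8%) lost, 837 (51.6%) split and 2 (0.123%) reversed. Of the 801 higher in MEP, 30 (3.75%) were kept, 280 (35.0%) lost, 491 (61.3%) split and 0 reversed. The kept counts depend on the scale, with 114 and 60 at a pseudocount of 0.1 in place of 1 and 47 and 17 without centring. Genes chosen for a WT difference tend to show a smaller one in any other group, which was not measured apart from the genotype, so the single knockouts are given for comparison. Dnmt3a-/- kept 89.7% and 90.3% and lost 0.555% and 1.12% of the genes higher in LSK and in MEP, and Bcor-/- kept 61.8% and 50.4% and lost 17.3% and 26.0%. With both mice required, fewer genes were kept and more lost in the double knockout than in either single knockout, although Dnmt3a-/- had to pass in 3 mice and the others in 2. For the genes of MEP this order against Bcor-/- rests on mouse 1, since mouse 2 alone kept 63.0%, between the 53.7% and 70.5% of the single Bcor-/- pairs. For the genes of LSK mouse 2 alone kept 50.6%, below their 66.9% and 77.7%.

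**Figure D2:**
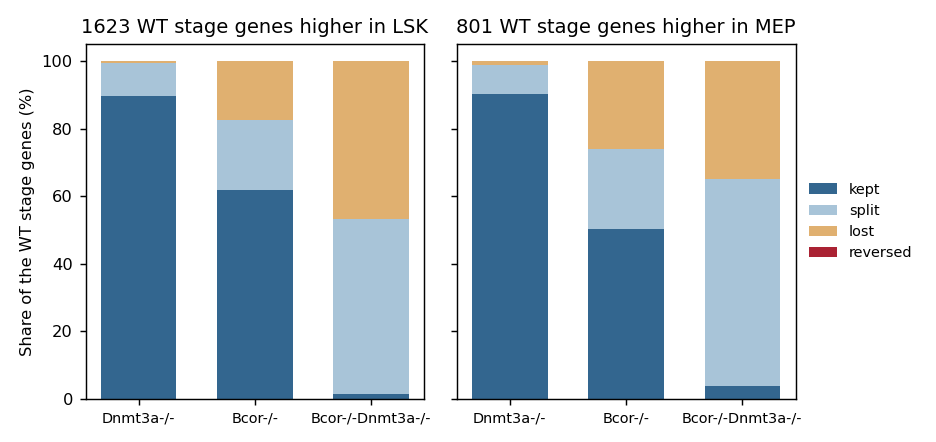
Share of the WT stage genes, higher in LSK on the left and higher in MEP on the right, that were kept, split, lost or reversed in each mutant genotype. Kept genes make up 89.7% and 90.3% of them in the Dnmt3a single knockout, and 1.54% and 3.75% in the double knockout, where reversed genes (0.123% and 0%) are too few to see.

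The split genes were nearly all carried by mouse 2. Of the 837 split genes higher in WT LSK, 796 were kept in mouse 2 and not in mouse 1, and 3 in mouse 1 and not in mouse 2. Among the 491 higher in WT MEP these numbers were 475 and 6. Taken singly, mouse 1 kept 28 of 1623 (1.73%) and 36 of 801 (4.49%), and mouse 2 kept 821 (50.6%) and 505 (63.0%). The median stage difference in the WT direction was 0.28 and 0.39 in mouse 1 and 1.01 and 1.25 in mouse 2, against WT medians of 1.86 and 1.60. Mouse 1 was on the opposite side of 0 from WT in 331 of the 1623 and 113 of the 801 genes, and mouse 2 in 171 and 42. Of the WT stage genes 143 and 18 fell below the minimum of 1 FPKM in the double knockout libraries, where a 2-fold difference of log2(FPKM + 1) is harder to reach.

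**Figure D3:**
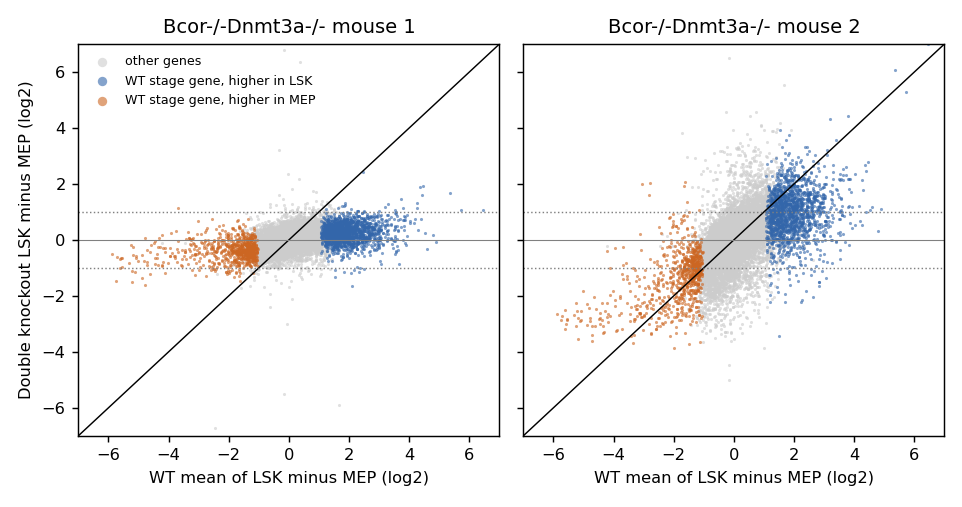
Stage difference in double knockout mouse 1 (left) and mouse 2 (right) against the mean over the 3 WT mice, 1 point per gene, for 11709 genes. The solid diagonal marks equal differences and dotted lines mark 2-fold. In mouse 1 the WT stage genes lie along 0, with medians of 0.28 and 0.39 in the WT direction, and in mouse 2 they lie between 0 and the diagonal, with medians of 1.01 and 1.25 (6 genes fall outside the axes).

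The libraries in which these genes moved were followed within each table. For the 1623 genes higher in WT LSK, the median difference from the WT mean was -0.35 and -0.20 in the double knockout LSK libraries and 1.24 and 0.57 in the MEP libraries. At least 2-fold above the WT mean were 57.5% of them in MEP of mouse 1 and 33.8% in MEP of mouse 2, against at most 5.61% in any WT MEP library. The WT share is limited by the choice of the genes on the WT libraries. In MEP of genotypes not used for that choice it was 0.185% to 2.77% (Dnmt3a-/-) and 5.24% and 2.53% (Bcor-/-). For the 801 genes higher in WT MEP the medians were 0.51 and 0.32 in LSK and -0.70 and -0.25 in MEP. At least 2-fold below the WT mean were 33.4% and 29.1% of the genes of LSK in the double knockout LSK libraries. Of the genes of MEP, 26.6% were 2-fold below and 2.25% above the WT mean in MEP of mouse 1, whereas in MEP of mouse 2 more were 2-fold above the WT mean (18.4%) than below it (13.9%). By these medians the cell types moved towards each other, and for the genes of LSK the median shift was larger in MEP than in LSK. Within LSK, 3472 of 11952 genes (29.0%) differed between double knockout and WT, and within MEP 3604 of 10933 (33.0%), at an adjusted p under 0.05 in limma. As a description, since the classes were chosen on the same values, among the 759 lost genes higher in WT LSK, 372 fell and 46 rose in double knockout LSK, and 228 of the 564 tested rose and 11 fell in MEP. Among the 837 split genes 140 fell and 187 rose in LSK, and 363 of 733 rose and 12 fell in MEP. Among the 280 lost genes higher in WT MEP, 186 fell and 1 rose in MEP, and 74 of 261 rose and 7 fell in LSK. With 1 variance per genotype the calls within a cell type dropped to 1018 in LSK and 48 in MEP, and without mouse 1 they were 5487 and 5524.

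The change of the stage difference itself was tested by limma on the differences within the 10 pairs of libraries, 1 pair per mouse except the Bcor-/- pair whose label names 2 animals. It was lower in the double knockout than in WT for 1458 of 11709 genes (12.5%) and higher for 1031 (8.81%), 2489 in all (21.3%), while 4429 (37.8%) had an unadjusted p under 0.05. WT stage genes were called more often. Of those higher in LSK, 640 of the 759 lost, 226 of the 837 split and 3 of the 25 kept were called lower. Of those higher in MEP, 240 of the 280 lost, 122 of the 491 split and 7 of the 30 kept were called higher. A gene list with many WT stage genes can thus exceed the shares of all genes for that reason alone, and the classes were chosen on the same values. Without double knockout mouse 1 the fit called 2345 lower and 1728 higher, without mouse 2 it called 2022 higher, and without WT 1 or WT 2 it called 600 or 597 lower and 362 or 358 higher. These counts rest on a spread shared by all genotypes. Limma called 0 genes once each genotype had its own variance (1687 genes, 14.4%, without adjustment) and 0 in a fit of only WT and double knockout mice (3134 genes, 26.8%, without adjustment). An exact permutation test of 2 against 3 mice cannot reach a p below 0.1.

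Erythroid regulators showed how the genes of MEP moved. Gata1 had 44.1 and 43.5 FPKM in double knockout LSK, above the WT LSK values of 7.83, 12.1 and 12.9, and 71.4 and 239 in MEP against 178, 225 and 170.2. Its stage difference of -0.79 in mouse 1 and -2.64 in mouse 2 was less negative than in every WT mouse (-3.80 to -4.51), a change of 2.47 ± 0.71 (SE; adjusted p = 0.0382, limma). Klf1, a zinc finger activator of erythroid genes, had 52.0 and 35.3 FPKM in LSK against 1.96 to 6.05 in WT, and 70.9 and 219 in MEP against 144 to 192. The change of its stage difference of 3.51 ± 1.16 missed the threshold (adjusted p = 0.0574), although both mice lay outside the WT range. Epor, the erythropoietin receptor, had 26.5 and 17.4 FPKM in LSK against 2.99 to 5.11, and its stage difference changed by 2.82 ± 0.83 (adjusted p = 0.0417, and 0.0522 without mouse 1). With any 1 of the 10 pairs left out in turn, Gata1 missed the threshold in 8 of 10 fits (adjusted p up to 0.122) and Epor in 9 (up to 0.130). In all these genes the LSK level rose in both mice (adjusted p of 0.000915, 0.000783 and 0.000715 within LSK, limma). Mouse 1 MEP lay below the WT MEP libraries whereas mouse 2 MEP lay within or above them. The Bcor-/- pairs had stage differences of -3.45 and -2.62 (Gata1), -3.63 and -2.63 (Klf1) and -3.17 and -2.36 (Epor). Mouse 2, at -2.64, -2.80 and -2.60, lay between these pairs. Only mouse 1, at -0.79, -0.55 and -0.65, was flatter than both. Of the 20 erythroid transcription factors on a list chosen for this comparison, 3 were called higher (Gata1, Ldb1 and Bcl11a) and 2 lower (Lmo2 and Nfe2) in the change of the stage difference, against 8.81% and 12.5% of all genes. Lmo2, a bridging partner of GATA1 shared with stem cells, went from 485 to 548 FPKM in WT LSK to 126 and 156 in the double knockout.

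The promoters of 3 erythroid genes and a stem cell gene are shown, since GATA1 is known to act on the 3 erythroid genes and Hlf is a gene of the LSK side. They are RefSeq sequences of GRCm38.p6, from 250 bases before to 50 after a start, matched by symbol, and the deposited values were made on another build, mm9. Capitals mark the GATA motifs AGATAA and TGATAA and the KLF motif CACCC on either strand. The Klf1 window (chr8:84901732-84902031, + strand) holds 1 TGATAA and 2 CACCC, the Epor window (chr9:21963527-21963826, - strand) 1 AGATAA and 2 CACCC, the Alas2 window (chrX:150547167-150547466, + strand) 1 AGATAA and 3 CACCC, and the Hlf window (chr11:90390868-90391167, - strand) 2 CACCC.
Klf1: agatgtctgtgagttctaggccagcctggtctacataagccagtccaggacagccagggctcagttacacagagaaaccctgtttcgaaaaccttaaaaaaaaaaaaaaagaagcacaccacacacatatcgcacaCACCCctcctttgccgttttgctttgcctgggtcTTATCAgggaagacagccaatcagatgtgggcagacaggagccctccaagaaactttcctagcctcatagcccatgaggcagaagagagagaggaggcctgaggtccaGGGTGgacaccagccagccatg
Epor: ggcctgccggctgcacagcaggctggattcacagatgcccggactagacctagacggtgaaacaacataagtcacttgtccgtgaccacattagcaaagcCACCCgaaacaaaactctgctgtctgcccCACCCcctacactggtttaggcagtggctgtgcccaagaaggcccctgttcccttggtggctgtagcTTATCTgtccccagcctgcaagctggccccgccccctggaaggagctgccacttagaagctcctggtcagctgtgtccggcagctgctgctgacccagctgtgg
Alas2: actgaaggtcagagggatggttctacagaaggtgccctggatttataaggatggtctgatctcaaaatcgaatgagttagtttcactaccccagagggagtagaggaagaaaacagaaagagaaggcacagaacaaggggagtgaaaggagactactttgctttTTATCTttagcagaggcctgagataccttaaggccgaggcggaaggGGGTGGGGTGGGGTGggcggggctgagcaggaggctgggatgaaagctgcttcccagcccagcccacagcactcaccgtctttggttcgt
Hlf: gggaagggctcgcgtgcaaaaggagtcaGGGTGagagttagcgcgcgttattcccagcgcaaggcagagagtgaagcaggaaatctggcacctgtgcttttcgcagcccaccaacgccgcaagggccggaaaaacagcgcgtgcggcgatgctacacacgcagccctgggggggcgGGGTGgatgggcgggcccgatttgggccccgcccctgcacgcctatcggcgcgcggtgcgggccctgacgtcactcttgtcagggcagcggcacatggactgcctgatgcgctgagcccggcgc
AGATAA or TGATAA stood in 18.6% of all 32851 promoter windows and in 10.6% of the 11371 windows of the genes at the minimum. The share was 16.3% of 759 windows of the WT stage genes higher in MEP and 11.2% of 1637 of those higher in LSK. Within the genes of MEP it was 24.2% of 33 windows of kept genes, 13.6% of 265 of lost and 17.4% of 461 of split genes. CACCC stood in 57.5% of all windows and 62.9% of those of the genes at the minimum. It stood in 65.2% of the windows of the genes of MEP and 68.6% of those of the genes of LSK. These shares describe letters in the windows and were not tested.

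Most globin, heme and red cell membrane genes rose in LSK, and their stage difference depended on the mouse. Hba-a1 (alpha globin) had 1810 and 6837 FPKM in LSK against 8.83 to 34.6 in WT, and 1055 and 55204 in MEP against 109.7 to 279.8. Mouse 1 therefore had more Hba-a1 in LSK than in MEP (stage difference 0.67), while mouse 2 kept a difference of -3.22, inside the WT range of -1.82 to -3.66. Alas2, the erythroid enzyme that starts heme synthesis, had 120.4 and 469 FPKM in LSK and 88.3 and 4392 in MEP, against at most 2.01 and 15.2 in WT. Slc4a1, the band 3 anion exchanger, had 223 and 437 FPKM in LSK and 123 and 3195 in MEP, against at most 5.47 and 32.7. Each of these 3 genes rose in LSK and in MEP (adjusted p of 4.68e-05 to 0.0129, limma). For none of the 3 did the change of the stage difference pass the test (adjusted p of 0.258 to 0.672), and the stage difference had opposite signs in the 2 mice. Hbb-b1 is listed at 0 in MEP of mouse 2, where Hbb-b2 has 30050 FPKM, so its stage difference there is not read.

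Over the 22 genes for globins and heme at the minimum, the median stage difference was -0.11 in mouse 1 and -2.47 in mouse 2, against -2.36 for the WT mean. In mouse 2, 19 of the 22 were at least 2-fold higher in MEP, and in mouse 1 this was 1, against 15.7% and 0.859% of all genes. The 22 red cell membrane genes had medians of -0.16, -2.85 and -3.38, with 0 and 21 genes at least 2-fold higher in MEP in mouse 1 and mouse 2. Within LSK 17 of 20 tested globin and heme genes and 18 of 22 membrane genes rose, against 14.9% of all genes, whereas within MEP 4 of 20 and 3 of 22 rose, near the 16.0% of all genes. The summed level of the globin and heme list was 7046 and 24563 FPKM in double knockout LSK against 385 to 506 in WT LSK. In sorted bulk RNA fewer cells of a type and less RNA per cell cannot be told apart, here or in any of the following lists. Aqp1, a red cell water channel, and Ank1, which anchors the membrane skeleton, were the 2 of 22 membrane genes called in the change of the stage difference, a share near the 8.81% of all genes called higher, with changes of 3.48 (adjusted p = 0.0395, and up to 0.131 with 1 mouse left out) and 3.36 (adjusted p = 0.0489).

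**Figure D4:**
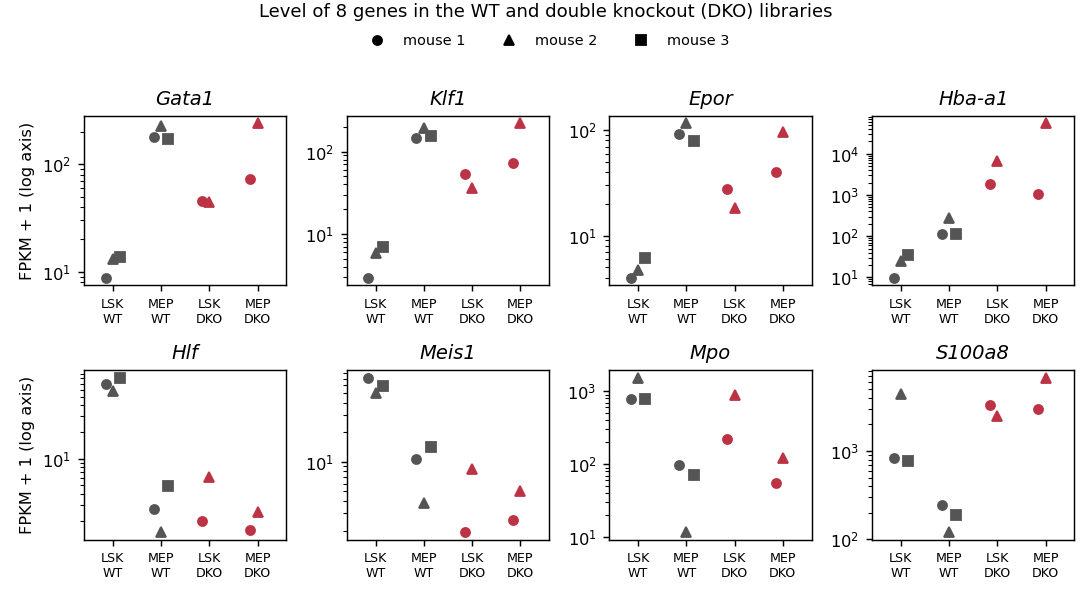
FPKM + 1 on a log axis for 8 genes in the LSK and MEP libraries of the WT (grey) and double knockout (DKO, red) mice, with a symbol for each mouse. Gata1, Klf1 and Epor lie higher in double knockout LSK than in any WT LSK library, Hlf and Meis1 lie low in all 4 double knockout libraries, and S100a8 lies higher in double knockout MEP (2988 and 6713 FPKM) than in WT MEP (120.3 to 244).

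In genes of stem cells it was mainly the level in LSK that fell. Hlf, a leucine zipper factor of stem cells, had 1.01 and 5.18 FPKM in double knockout LSK against 67.6, 57.1 and 80.5 in WT, and 0.586 and 1.53 in MEP against 0.495 to 3.89. Meis1, a homeobox partner of HOXA9, had 0.930 and 7.53 FPKM in LSK against 49.4 to 70.5. Angpt1, a ligand of the TIE2 receptor, had 1.39 and 9.89 against 116 to 161. Double knockout LSK was below every WT LSK library in each of them, and mouse 1 was the lower. Their stage differences changed by -3.85 ± 0.84 (Hlf, adjusted p = 0.0160), -2.67 ± 0.59 (Meis1, 0.0164) and -2.63 ± 0.62 (Angpt1, 0.0203) by limma. Without mouse 1 the adjusted p became 0.0555 for Angpt1, and over all 10 fits with 1 mouse left out it reached 0.0586 for Angpt1, 0.0551 for Hlf and 0.0494 for Meis1. Gata2, the GATA factor of stem cells that precedes GATA1, had 3.74 and 10.1 FPKM in LSK against 54.1 to 74.5, and 6.98 and 30.2 in MEP against 18.6 to 49.2. It was somewhat higher in LSK in every WT mouse (0.42 to 1.35) and higher in MEP in both double knockout mice (-0.86 and -1.69), a change of -2.03 ± 0.38 (adjusted p = 0.0101, limma). Gata2 was also higher in MEP in both Bcor-/- pairs (-0.47 and -1.06), with double knockout mouse 1 between them. In Dnmt3a-/- mice it was higher in LSK (0.27 to 1.07).

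Over the list of stem cell regulators, 16 of 19 tested genes were called lower in the change of the stage difference and 0 higher, against 12.5% and 8.81% of all genes. Of these 19, 14 were WT stage genes higher in LSK, a kind called lower more often than all genes. The median stage difference of the 15 genes at the minimum was -0.01 in mouse 1 and 0.55 in mouse 2, against 2.08 in WT. Of 20 tested, 13 fell in LSK and 0 rose, against 14.2% and 14.9% of all genes. Erg, an ETS factor, was an exception in mouse 1, with 169 FPKM in LSK and 124 in MEP against 78.2 to 88.2 and 6.79 to 11.4 in WT, while mouse 2 had 9.56 and 5.30. The vascular-type stem cell genes had 9 of 14 called lower, with Adgrl4 at 2.02 and 13.8 FPKM in LSK against 231 to 281 in WT.

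Among the Hox genes, homeobox factors of self-renewal and myeloid identity, 9 of 12 tested were called lower and 0 higher (12.5% and 8.81% of all genes were), with medians of -0.09 and -0.18 in the 2 mice against 1.22 in WT. Of these 12, 8 were WT stage genes higher in LSK, a kind called lower more often than all genes. Hoxa9 had 1.87 and 6.21 FPKM in double knockout LSK and 4.39 and 8.75 in MEP, against 24.6 to 34.4 and 3.17 to 6.38 in WT. It was thus higher in MEP than in LSK in both double knockout mice, and its stage difference changed by -3.20 ± 0.25 (adjusted p = 0.00137). Hoxa10 was 1 of the 2 genes that reversed, with 0.636 and 1.46 FPKM in LSK and 2.33 and 3.66 in MEP, against 6.52 to 10.4 and 0.719 to 1.66 in WT. Its stage difference was -1.14 and -1.13 in the double knockout, 1.34 to 2.12 in WT, 1.80 to 2.68 in Dnmt3a-/- and -0.03 and -0.40 in Bcor-/-. Adgra2, an adhesion G protein-coupled receptor, was the other, with -1.09 and -1.03 against 1.28 to 1.84 in WT and 0.26 and 0.40 in Bcor-/-. Both fell in LSK (by 2.12 and 2.08 on the log2 scale, adjusted p of 0.000494 and 0.00200), and in MEP the differences of 0.84 and 0.52 did not pass the test (adjusted p of 0.0818 and 0.324). The reversed genes are low in all double knockout libraries, at no more than 5.47 FPKM, and 0 genes were reversed without centring, with quantile normalization or with a minimum of 5 FPKM. Not every Hox gene fell. Summed over the 18 genes of the list, mouse 1 LSK had 81.6 FPKM, inside the WT range of 71.2 to 87.1, and mouse 2 LSK 28.9, while MEP had 67.1 and 27.6 against 8.61 to 15.4. Named after their values were seen, Hoxb7 and Hoxb8 made up much of the sum in mouse 1, with 28.4 and 30.7 FPKM in LSK and 23.1 and 21.2 in MEP, and were at no more than 0.522 FPKM in WT and in mouse 2.

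Ordered by the smaller of the 2 mice's stage differences, the genes kept on the LSK side were led by Elane, Mpo, Ly6a, Prtn3 and Ms4a3, of which Elane, Mpo and Prtn3 encode primary granule proteins of early granulocytes. By the mean of both mice, Jchain, Ly6a, Prg2, Epx and Slpi lay above the granule genes. Elane, neutrophil elastase, had 154 and 703 FPKM in LSK against 36.7 and 88.5 in MEP, Mpo, myeloperoxidase, 221 and 891 against 55.1 and 121, and Prtn3, proteinase 3, 138 and 477 against 41.3 and 74.3. Their stage differences were 1.93 and 2.77, 1.88 and 2.67, and 1.61 and 2.46, so these were among the few genes in which mouse 1 separated its gates by 2-fold. In WT the differences ran from 1.95 to 6.51 for Elane and from 2.86 to 6.88 for Mpo, and the change did not pass the test (adjusted p of 0.294 and 0.303, limma). Of the 21 early myeloid genes at the minimum 4 were stage genes of the double knockout, against 0.429% of all genes, and 19 were WT stage genes. Of these 19, 4 were kept, 9 lost and 6 split, and in MEP 10 of 21 rose and 0 fell (16.0% of all genes rose). In the change of the stage difference 5 of the 21 were called lower, against 12.5% of all genes. That share is a low yardstick here. Of all WT stage genes higher in LSK, 640 of 759 lost, 226 of 837 split and 3 of 25 kept were called lower. The other kept genes of LSK included Ly6c2, Fn1, Gas6, Cxcl12 and Slpi. On the MEP side the 30 kept genes were led by Gm15915, Aldh1a7, Car1, Slc25a21 and Klra7, and included Ces2g, Asns, Pklr, Nqo1, Aldh1a1 and Gp5. Asns, asparagine synthetase, had 28.3 and 63.4 FPKM in MEP against 133 to 192 in WT, and 13.0 and 17.9 in LSK against 8.83 to 9.52. Its stage difference was kept at -1.17 and -1.98 and yet was smaller than in WT (change 2.54 ± 0.48, adjusted p = 0.0100). Pklr, the red cell pyruvate kinase, was at 59.7 and 87.6 FPKM in MEP against 125 to 239.5 in WT and at 31.3 and 17.0 in LSK against 1.99 to 4.51.

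Of the late granulocyte genes, all 16 on the list were WT stage genes higher in LSK, with 0 kept, 5 lost and 11 split, and all 16 were called lower in the change of the stage difference, against 12.5% of all genes. Over all WT stage genes higher in LSK, 640 of 759 lost and 226 of 837 split genes were called lower. S100a8, a calcium-binding protein of neutrophils, had 3340 and 2493 FPKM in double knockout LSK and 2988 and 6713 in MEP, against 760.1 to 4389 and 120.3 to 244 in WT. Its stage difference was 0.05 in mouse 1 and -1.64 in mouse 2, against 1.59 to 5.03 in WT, a change of -3.62 ± 1.002 (adjusted p = 0.0340, and 0.109 without mouse 2, the highest with 1 mouse left out). The change lay in MEP, where all 16 genes rose (16.0% of all genes did), while in LSK 2 rose and 1 fell, no more than the 14.9% and 14.2% of all genes. The summed level of the list in MEP was 7387 and 17133 FPKM in the double knockout and 336 to 609 in WT, and none of its genes was listed at 0 in any of these libraries. Prss34 and Mgst1 led the lost genes of LSK by size together with Otos, Clec4e and Gm5111. Mgst1, a microsomal glutathione transferase of myeloid cells, had 59.7 and 20.3 FPKM in LSK against 24.2 to 41.4, and 56.4 and 28.4 in MEP against 0.743 to 1.91. Otos fell in LSK to 1.27 and 0.842 FPKM from 15.9 to 24.8. The lost genes of MEP were led by Fam132a, Zg16, Spon2, BC021614 and Il1rl1. Fam132a, which encodes the secreted factor adipolin, had 125 and 8.46 FPKM in MEP against 353 to 571 in WT. Zg16 had 0.383 and 1.61 against 17.4 to 20.1, and Spon2, a secreted matrix protein, 0.865 and 0.724 against 17.2 to 29.9.

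Markers of other blood cells were present in the double knockout libraries and differed between the mice and gates. Over 13 B cell genes the median stage difference was 0.32 in mouse 1 and 2.45 in mouse 2, against -0.65 in WT. Cd79a, a chain of the B cell receptor, had 736 and 466 FPKM in LSK and 500.4 and 43.7 in MEP, against at most 16.2 and 21.3 in WT. Igll1 and Vpreb1, the surrogate light chain genes of pre-B cells, were high in both gates of mouse 1 only, with 996 and 878 FPKM in LSK and 928 and 793 in MEP against at most 1.88 in the libraries of mouse 2. The summed B cell list was 1430 to 4149 FPKM in double knockout LSK and 161 to 3375 in MEP, against 52.2 to 132 and 41.3 to 231 in WT. The summed T and NK cell list was 310.1 to 967 FPKM in LSK and 315 to 763 in MEP, against 44.0 to 61.4 and 35.3 to 67.8 in WT. The macrophage list was highest in mouse 1, with C1qb, a complement chain, at 409.9 FPKM in LSK and 231 in MEP, and 7.30 and 2.10 in mouse 2. MHC class II genes had medians of 0.64 and 2.84 against 0.94 in WT, with Cd74 at 1054 and 2723 FPKM in LSK and 503 and 262 in MEP. These lists move with the flattened stage differences of mouse 1 and with the differences of mouse 2, and their part in either was not tested.

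Genes of DNA replication and mitosis also separated the mice. In mouse 2, 33 of 34 were at least 2-fold higher in MEP (15.7% of all genes were), and in mouse 1 this was 0, with medians of -1.83 and -0.12 against -0.87 in WT. Uhrf1, which guides DNMT1 to replicated DNA, had 117 and 45.8 FPKM in LSK and 98.1 and 154 in MEP, against 83.4 to 85.4 and 109 to 139.7 in WT. Mouse 2 LSK was below and mouse 2 MEP above every WT library, while mouse 1 LSK was above and mouse 1 MEP below. Of the 34 genes only Ccne1, a cyclin of S phase entry, was called in the change of the stage difference (2.44 ± 0.55, adjusted p = 0.0170). Genes of oxidative phosphorylation had medians of -0.30 and -0.67 against -0.95 in WT, with 19 of 76 called higher and 1 lower, against 8.81% and 12.5% of all genes. Immediate early genes, known to respond to cell handling, had medians of 0.33 and 1.38 against 1.77, with 6 of 21 called lower (12.5% of all genes were) and 0 higher. Of these 21, 11 were WT stage genes higher in LSK, a kind called lower more often than all genes. Fos had 239 and 1170 FPKM in LSK and 173 and 611 in MEP, against 1243 to 1582 and 153 to 337 in WT. The summed level of the immediate early list was 1115 FPKM in LSK of mouse 1 and 7943 in LSK of mouse 2, against 4490 to 6320 in WT. In MEP it was 818 and 3069, against 761 to 1596. The 20 interferon-stimulated genes, of interest because Mx1-Cre is induced through interferon, had medians of 0.30 and 0.71 against 1.001, with 6 called lower and 0 higher, against the same shares. Of these genes 7 of 20 tested rose in LSK and 9 of 18 in MEP, against 14.9% and 16.0% of all genes, and 0 fell. Their summed level was 764 to 842 FPKM in double knockout LSK and 578 to 945 in MEP, against 282 to 295 and 109 to 123 in WT. Isg15 stood apart in MEP of mouse 2, with 430.4 FPKM against 31.7 in MEP of mouse 1 and at most 7.36 in WT MEP. The 18 megakaryocyte genes at the minimum had medians of -0.14 and 0.36 against 0.27, and Pf4, platelet factor 4, had 7.68 and 8.09 FPKM in MEP against 56.5 to 243 in WT, where it fell by 3.99 on the log2 scale (adjusted p = 0.00212). Of 24 megakaryocyte genes tested in MEP 5 fell and 1 rose, near the 17.0% of all genes that fell. In LSK 11 of the 24 fell and 1 rose, against 14.2% and 14.9% of all genes.

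**Figure D5:**
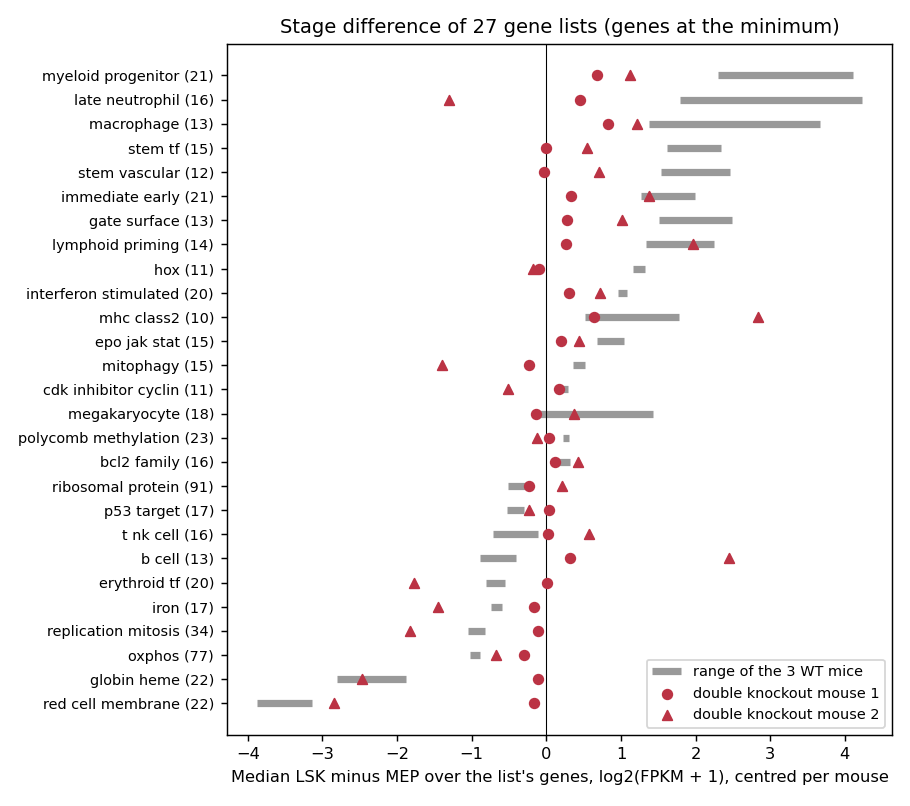
Median stage difference over the genes at the minimum of each of 27 gene lists (number of genes in brackets), ordered by the WT value. Grey bars span the 3 WT mice, circles are double knockout mouse 1 and triangles mouse 2. Circles gather between -0.30 and 0.83, whereas triangles run from -2.85 (red cell membrane) to 2.84 (MHC class II).

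New stage differences were few. Among genes under 2-fold in every WT mouse, 8 became higher in LSK and 8 higher in MEP in both double knockout mice, while 12 and 11 of the double knockout stage genes passed 2-fold in some but not all WT mice and 6 and 4 were below the minimum over all 20 libraries. Cacna1e, a calcium channel subunit, had 6.36 and 38.9 FPKM in LSK and 1.83 and 5.38 in MEP, against at most 0.699 and 1.23 in WT. Fcmr, the receptor for IgM and a lymphoid gene, had 29.0 and 258 FPKM in LSK and 12.8 and 40.1 in MEP, and Marco, a macrophage scavenger receptor, 34.0 and 5.43 in LSK and 8.17 and 0.722 in MEP. In WT both were below 1 FPKM in every library. These 3 genes reached the minimum through the double knockout libraries, so no test of their change is read. Serf1 and Adgrg7 were gained in the MEP direction through a fall in both gates that was deeper in LSK. Serf1 went to 2.44 and 3.76 FPKM in LSK and 9.36 and 9.42 in MEP, from 26.4 to 30.7 and 24.8 to 25.9 in WT (change -1.52 ± 0.18, adjusted p = 0.00335). Klra3 and Klrc1, NK cell receptors, were gained in MEP, with 3.74 and 20.8 FPKM of Klra3 and 3.85 and 23.5 of Klrc1 in mouse 1 and mouse 2, against at most 1.19 FPKM in WT MEP.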

How the data were processed

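LSK and MEP cells were sorted from BM of the same mice and their polyA RNA was sequenced. The authors deposited 1 table per cell type with the FPKM of 24315 genes in 10 libraries, and per the submitters' processing notes STAR 2.5.1b, SAMtools 1.9, Cufflinks 2.2.1 and the mm9 build were used. Read counts were not analysed here, so depth is unknown and no counting error was computed. The steps of values under 0.2 FPKM put the double knockout libraries at 0.847 to 1.15 times the depth of WT replicate 1 of the same cell type. An FPKM of 0 can be a failed estimate, and 46 to 145 of the 11876 genes were listed at 0 in a double knockout library.

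Values were analyzed as log2(FPKM + 1) in R 4.3.3 with limma 3.58.1, with Python 3.11.15 and matplotlib 3.10.9 for the plots. Stage differences were centred on each mouse's median, which before centring was 0.11 and 0.21 in the double knockout mice. The main test was limma's moderated test with trend on the per-mouse differences, 1 mean per genotype over 10 pairs, two-sided with Benjamini-Hochberg adjusted p under 0.05 for the 11709 genes whose mean in the 20 libraries reached 1 FPKM. Double knockout against WT was tested likewise within a cell type. The pairing rests on the animal named in the labels, and the deviations from the group means of same-mouse LSK and MEP libraries correlated with r = 0.555 in the double knockout and 0.00 to 0.18 in the other genotypes. Named genes are the 8 largest double knockout differences in each direction, up to 5 per class, up to 3 per gene list and a list of key genes, with further list members named after their values were seen, and 1 key gene is not reported here. The comparison, its genes and the gene lists were chosen with earlier results of these data known. The scripts were tested on simulated data. Alternatives covered the pseudocount, the minimum, centring, the fold threshold, the variance model, the block and leaving out mice.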

Additional observations from a re-analysis of the deposited data

Results flagged for a closer look

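In a test of the difference itself (limma on the per-mouse differences), the stage difference was lower in the double knockout than in WT for 1458 genes and higher for 1031. Among the key genes it was higher for Gata1 (2.47) and Epor (2.82), and lower for Gata2 (-2.03), Kit (-0.86), Hlf (-3.85), Meis1 (-2.67), Angpt1 (-2.63) and S100a8 (-3.62), all on the log2 scale. The highest adjusted p of these 8 genes over the alternatives lay between 0.268 (Kit) and 0.407 (S100a8), each with 1 variance per genotype. No group of 4 or more samples was available for a test of single libraries that stand apart, so the distance between the 2 double knockout mice is a description.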

How the results depend on the processing

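Counts of double knockout genes that were stage genes (higher in LSK, in MEP; 51 and 55), WT stage genes kept (LSK 25, MEP 30) or lost (LSK 759, MEP 280), reversed (2) and gained (16) moved as follows. With a pseudocount of 0.1 there were 186 and 109 stage genes, 114 and 60 kept and 33 gained. A minimum of 5 FPKM gave 33 and 36 stage genes, 466 and 181 lost, 0 reversed and 3 gained, and no minimum gave 1 reversed. Without centring there were 86 and 32 stage genes, 47 and 17 kept and 0 reversed, and quantile normalization gave 48 kept in MEP and 0 reversed. At 1.5-fold there were 459 and 400 stage genes, 289 and 307 kept, 451 lost in MEP, 11 reversed and 65 gained. At 4-fold there were 1 and 1 stage genes, 0 and 0 kept, 292 and 67 lost, 0 reversed and 0 gained.

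Leaving out 1 mouse, with centring redone over the genes at the minimum in the rest, gave 99 to 1945 stage genes higher in LSK and 103 to 1881 higher in MEP. Kept genes ran from 25 to 816 (LSK) and 30 to 508 (MEP), lost genes from 774 to 1586 and 284 to 764, reversed genes from 2 to 42 and gained genes from 17 to 1411, each highest without double knockout mouse 1 except the lost ones (without mouse 2). The change of the stage difference was called lower for 597 to 2345 genes and higher for 358 to 2022, and double knockout against WT for 2480 to 5487 in LSK and 2454 to 5524 in MEP. With 1 double knockout mouse the lone mouse is assumed to vary like the others. With only mouse 2 and with only mouse 1, the change of the stage difference had opposite signs in 37 of 128 named genes, of which 4 were called in both fits, namely Ftl1 (-0.70 and 0.78), Mcm6 (-0.88 and 0.54), Mcm7 (-0.77 and 0.77) and Uhrf1 (-1.28 and 0.80).

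Without the pairing by mouse, 2-fold in the mean over mice gave 760 and 714 stage genes, 440 and 372 kept, 1758 and 822 lost, 27 reversed and 548 gained, and the change of the stage difference was called lower for 918 genes. Of 51 named genes called in that change, 18 were not called without this block. Only WT and double knockout mice, or 1 variance per genotype, left 0 lower and 0 higher, with 51 of 51 named calls lost under each, and the latter 1018 and 48 within LSK and MEP. The replicate number as a block within a cell type left 2602 and 2946.

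Of the 51 calls, 22 were lost in at least 1 fit without 1 mouse, 21 of them without WT 1 or WT 2. The causes were not tested. With 2 double knockout mice, depth unknown and both gates in separate tables, values under about 1 FPKM and the split genes are least certain.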
